A study of Caenorhabditis elegans with 12 samples.

Results

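The proteasome subunits of Caenorhabditis elegans were followed in mRNA sequencing of whole adult worms. Members were the genes whose name in the deposited gene table starts with pas, pbs, rpt or rpn and a number. This gave 32 of the 46726 genes in the table, of which 14 encode the core particle and 18 the regulatory particle. All 32 had enough reads to be tested. The ubiquitin receptor gene rpn-13 stands in the table under its sequence name, C56G2.7, so the name rule did not take it, and its values are given apart.

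The xpf-1 group was 6 libraries of the DNA-repair mutant strain TG1660, which carries the tm2842 allele of xpf-1, a nuclease gene of nucleotide excision repair. The N2 group was 6 libraries of the laboratory wild type. All worms were day-7 adults fed E. coli OP50, and each RNA preparation pooled many synchronized animals. The mutant is represented by 1 strain, so the allele cannot be told apart from other differences between that strain and N2. For N2 replicate 6 the title and strain say N2 while the genotype label names the mutant, and its title was followed. The labels speak of triplicates while each group has 6 libraries, so p-values measure the spread between libraries, part of which may be technical.

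The proteasome is the chamber in which the cell degrades proteins tagged with ubiquitin. Its core particle is a barrel of stacked rings. Outer rings of alpha subunits (PAS) gate the entrance, and inner rings of beta subunits (PBS) carry the proteolytic sites in PBS-1, PBS-2 and PBS-5. The regulatory particle caps the barrel. A ring of ATPases (RPT) in its base unfolds substrates and feeds them in, and the non-ATPase subunits (RPN) bind, hold and deubiquitylate them. In worms, as in mammals, subunit genes are known to respond together when proteasome activity is low, through the transcription factor SKN-1A, the worm counterpart of NRF1. The germline and early embryo make heavy use of ubiquitin-dependent degradation, among others to clear maternal proteins.

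Library totals ran from 18407182 to 22817135 counts in xpf-1 and from 18667885 to 22370786 in N2. Genes with at least 1 read numbered 19689 to 20886 in xpf-1 and 18419 to 19213 in N2, without overlap. The xpf-1 transcript checked the labels, at 9.90 to 14.1 CPM (counts scaled to library size) in the mutant and 63.9 to 81.1 CPM in N2. N2 replicate 6 was not an exception. On the other strand inos-1 shares 1984 bases with xpf-1 and had 1145% as many reads. Whether inos-1 reads enter the xpf-1 level was not tested. Of 54 germline and oocyte markers 44 fell and 3 rose in the mutant (median log2 fold -0.75), and their summed level was 8307 to 9241 CPM in xpf-1 and 13277 to 14541 CPM in N2. None of these markers was at 0. Of 17 tested neuron markers 6 rose and 0 fell (median log2 fold 0.088, summed 618 to 663 CPM in xpf-1 and 574 to 596 CPM in N2), and of 13 hypodermis markers 7 rose and 4 fell (median log2 fold 0.65, summed 571 to 672 CPM in xpf-1 and 589.9 to 691 CPM in N2). Of 18 intestine markers 5 rose and 7 fell (median 0.051, summed 5089 to 5693 CPM in xpf-1 and 5105 to 6338 CPM in N2). Of 18 body wall muscle markers 6 rose and 6 fell (median -0.021, summed 1778 to 1938 CPM in xpf-1 and 1872 to 2056 CPM in N2). Of 9 tested sperm markers 2 rose and 5 fell (median -0.41, summed 28.9 to 39.8 CPM in xpf-1 and 38.4 to 44.3 CPM in N2). The sums include markers that were not tested, over 23 sperm, 18 hypodermis and 18 neuron genes. Among all tested genes 29.6% fell and 30.1% rose at an edgeR adjusted p of 0.05. Beside these shares, 33.3% of body wall muscle markers fell and 33.3% rose, and 38.9% of intestine markers fell and 27.8% rose. Of neuron markers 35.3% rose. In whole worms, fewer germline cells and less RNA per cell cannot be told apart. The part of these marker shifts, and of the number of genes detected, in the values that follow was not tested. Among the members, xpf-1 replicate 1 and N2 replicate 2 stood apart most often. Over all genes, xpf-1 replicates 1 and 5 lay apart from the other mutant libraries (chi-square per gene 22.5 to 43.6, against 6.56 to 11.5 among the others and 14.1 between these 2). N2 replicate 5 lay apart from the other N2 libraries (44.6 to 64.2, against 6.11 to 21.5 among the others).

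Most proteasome transcripts were modestly lower in the mutant. Of the 32 members 22 fell, 1 rose and 9 did not pass edgeR's quasi-likelihood test at an adjusted p of 0.05. Among all 14248 tested genes 59.7% passed, with 29.6% lower and 30.1% higher, so the 68.8% of members that fell stand above the share of all genes. The members are abundant, with 31 of them between 92.8 and 421 CPM on average, and of the 2289 genes in that range 48% fell and 27.2% rose. The median log2 fold change (xpf-1 over N2) was -0.21 over the members, against 0.028 over all tested genes and -0.10 over the genes of that range. In 18 members every mutant library lay below every N2 library, and in 1 every mutant library lay above. Among all tested genes the libraries were separated in this way for 20.3% as lower and for 17.9% as higher. With library totals in place of TMM scaling (TMM sets factors from the bulk of genes) 18 members fell and 4 rose, where 24.7% of all genes fell and 35.3% rose. Upper quartile factors gave the same counts. When only genes reaching 5 CPM in 6 libraries were tested, 20 members fell and 4 rose, where 34.4% of all genes fell and 36.3% rose.

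The changes were small. In a test against a 1.5-fold change, which 4.65% of all genes passed as lower and 6.88% as higher, pas-7 alone of the 32 passed, as lower. The authors' deposited table called 24 members lower and 1 higher, and 30 of its 32 calls were the calls of edgeR. Without xpf-1 replicate 1 and N2 replicate 2 together, 23 fell and 3 rose. Without xpf-1 replicates 1 and 5 and N2 replicate 5, 20 fell and 1 rose, rpt-2 and rpt-4 no longer passing. In that fit 26.9% of all genes fell and 25.9% rose.

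**Figure D1:**
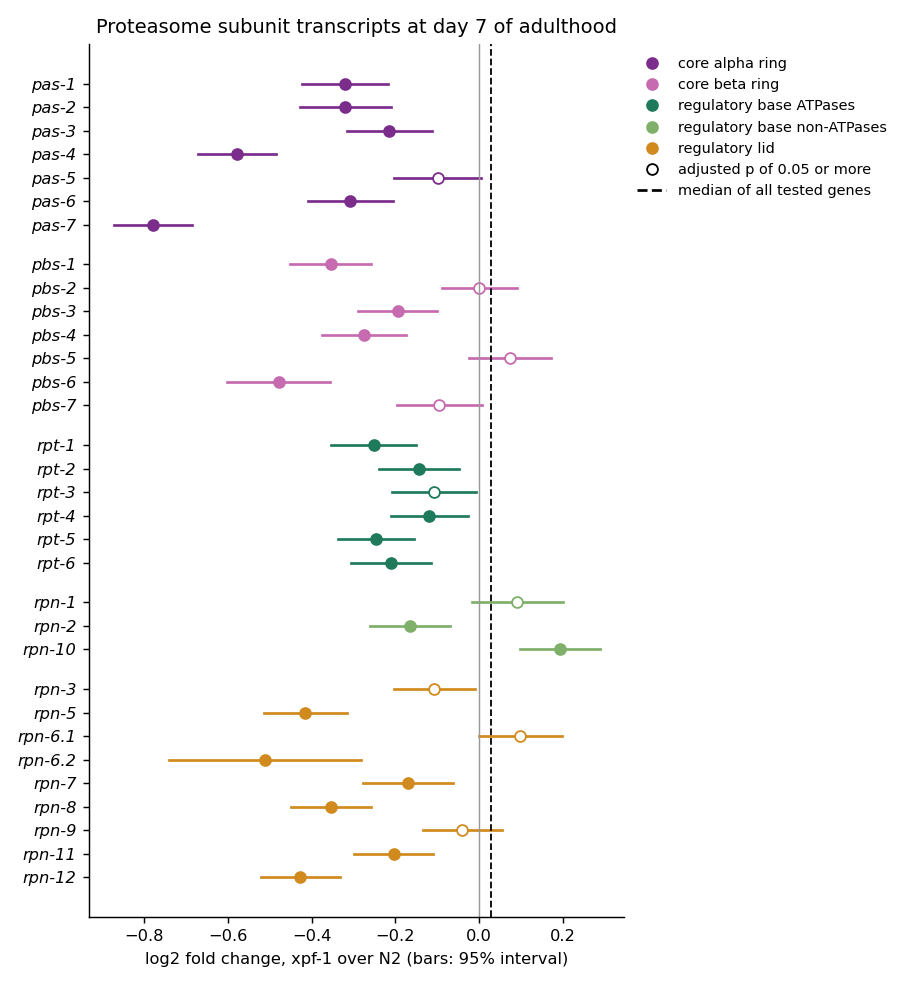
Log2 fold change of each proteasome subunit transcript, xpf-1 over N2, with its 95% interval (x axis), for the 32 members in their structural groups (y axis). Filled points passed an adjusted p of 0.05, and the dashed line is the median of all tested genes (0.028). pas-7 lies farthest to the left at -0.78, and rpn-10 is the filled point to the right of 0.

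The alpha ring held the largest changes, with 6 of its 7 genes lower, 0 higher and a median log2 fold of -0.32. That is 85.7% lower, against 29.6% of all tested genes and 48% of those in the abundance range of the members. The gene pas-7 (WBGene00003928, chromosome II, 10098778 to 10099867, minus strand, WBcel235) encodes the last-numbered alpha subunit. It had a lowest, median and highest level of 168, 175 and 192 CPM in xpf-1, against 282, 309 and 312 CPM in N2. The groups were far apart, and the mutant mean of 177 ± 8.53 CPM was 58.2% of the N2 mean of 304 ± 11.4 CPM (SD, n = 6 each). Its log2 fold was -0.78 ± 0.05 (SE), with an edgeR adjusted p of 1.08e-15. Its annotated span overlaps that of lact-2 on the other strand by 8 bases, and lact-2 had 22.6% as many reads and rose by 0.23 ± 0.07 log2 units.

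The alpha subunit gene pas-4 came next. It stood at 138, 150.03 and 154 CPM (lowest, median and highest) in xpf-1 and at 204, 226 and 232 CPM in N2. No library of one group reached the other, and the log2 fold was -0.58 ± 0.05 (SE, edgeR adjusted p 1.2e-12).

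The alpha subunit genes pas-1, pas-2 and pas-6 fell by nearly the same amount. For pas-1 the levels were 106, 129 and 133 CPM in xpf-1 and 149, 158 and 162 CPM in N2. For pas-2 they were 212, 226 and 256 CPM in xpf-1 and 271, 286 and 326 CPM in N2. For pas-6 they were 156, 181 and 200.4 CPM in xpf-1 and 217, 224 and 227 CPM in N2. The 3 log2 folds were -0.32, -0.32 and -0.31, each with an SE of 0.05, and the groups did not overlap in any of the 3. The low end of pas-1 is xpf-1 replicate 1, the other mutant libraries lying between 126 and 133 CPM.

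The remaining alpha subunit genes were pas-3 and pas-5. For pas-3 the mutant libraries held 234, 281 and 290.5 CPM and the N2 libraries 306, 319 and 329.6 CPM. Here the groups were separate by a narrow gap, and the log2 fold was -0.21 ± 0.05 (SE, edgeR adjusted p 0.000394). Its call was lost in replicates 4 to 6 alone, with an edgeR adjusted p of 0.0745 (4.81e-06 to 0.0745 across scalings, filters and subsets). The gene pas-5 is the most abundant member, at 367, 406 and 449 CPM in xpf-1 and 418, 431 and 479 CPM in N2. Its groups overlapped, and the log2 fold of -0.10 did not pass (95% interval -0.20 to 0.01, edgeR adjusted p 0.0964). It passed as lower under 4 alternatives, among them without xpf-1 replicate 6 (0.0331) and with the length trend removed (0.0283), within a range of 0.0269 to 0.716.

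In the beta ring 4 of 7 genes fell and 0 rose, and the median log2 fold was -0.19. The share lower, 57.1%, lies near the 48% of genes in the abundance range of the members (29.6% of all tested genes). The largest fall was in pbs-6, a beta subunit without a proteolytic site. It had 129, 164 and 167 CPM in xpf-1 and 201, 213 and 236 CPM in N2, with no overlap and a log2 fold of -0.48 ± 0.06 (SE, edgeR adjusted p 8.52e-08). The lowest of these values is again xpf-1 replicate 1. The structural subunit genes pbs-4 and pbs-3 fell too. For pbs-4 the levels were 208, 227 and 234 CPM in xpf-1 and 247, 269 and 304 CPM in N2. For pbs-3 they were 195, 224 and 238 CPM in xpf-1 and 247, 253 and 257 CPM in N2. The log2 folds were -0.28 ± 0.05 for pbs-4 and -0.19 ± 0.05 for pbs-3 (SE), and in both genes the groups did not overlap. On the other strand, mrrf-1 shares 296 bases with pbs-4 and fell by 0.50 ± 0.07 log2 units at 12.7% of its reads, and ndx-3 shares 6 bases with pbs-3 and fell by 0.55 ± 0.08 at 8.08%. The remaining structural subunit gene, pbs-7, had 242, 281 and 296 CPM in xpf-1 and 279, 299 and 314 CPM in N2. Its groups overlapped and it did not pass (log2 fold -0.09, 95% interval -0.20 to 0.01, edgeR adjusted p 0.0993). Its log2 fold was -0.047 without xpf-1 replicate 1. It passed as lower with no low-count filter (0.0389) and with the length trend removed (0.0133), within a range of 0.00929 to 0.803.

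Of the 3 genes of the proteolytic sites 1 fell and the others did not pass, where 29.6% of all tested genes fell. The gene pbs-1 encodes the subunit whose yeast counterpart cuts after acidic residues. It had 231, 250.4 and 266 CPM in xpf-1 and 300.2, 316 and 342 CPM in N2, with no overlap and a log2 fold of -0.35 ± 0.05 (SE, edgeR adjusted p 9.36e-08). The gene pbs-2, for the counterpart of the trypsin-like subunit, had 155, 161 and 168 CPM in xpf-1 and 155, 162 and 169.7 CPM in N2. These ranges lie nearly on each other, and the 95% interval of the log2 fold was -0.09 to 0.09. The gene pbs-5, for the counterpart of the chymotrypsin-like subunit, had 159, 170.4 and 175 CPM in xpf-1 and 145, 160.2 and 175 CPM in N2. It did not pass either (log2 fold 0.07, 95% interval -0.02 to 0.17, edgeR adjusted p 0.187). It did pass as higher under 6 alternatives, among them library totals only (adjusted p 0.0171) and leaving out N2 replicate 2 (0.0374), within a range of 0.0105 to 0.931, and its log2 fold was 0.045 without N2 replicate 6.

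Ratios of reads inside a library need no scaling between libraries and describe the trio further. Such ratios are given for 6 pairs of members, chosen by role with the results known, so they carry no test. Reads of pbs-1 per read of pbs-2 were 1.54 in xpf-1 and 1.98 in N2 (geometric means), and reads of pbs-1 per read of pbs-5 were 1.48 in xpf-1 and 1.99 in N2. Neither ratio overlapped between the groups. Reads of pbs-2 per read of pbs-5 were 0.957 in xpf-1 and 1.01 in N2, with overlapping libraries.

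**Figure D2:**
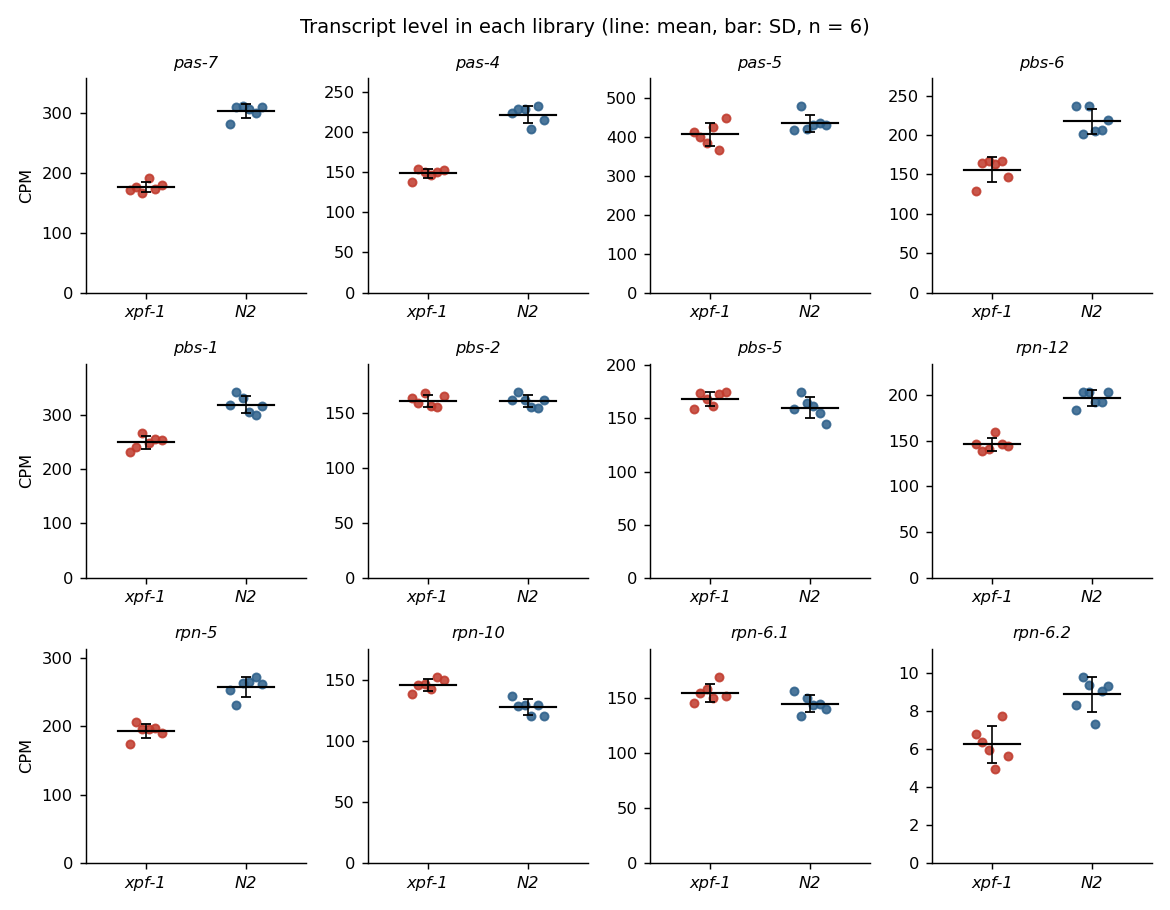
Level of 12 members in each library, in CPM (y axis, from 0), with xpf-1 left of N2, the mean as a line and the SD as a bar. The 6 mutant libraries of pas-7 lie between 168 and 192 CPM and the N2 libraries between 282 and 312 CPM, while the ranges of pbs-2 lie nearly on each other and those of rpn-10 are reversed.

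In the base of the regulatory particle, 5 of the 6 ATPase genes fell and 0 rose. Among all tested genes 29.6% fell, and in the abundance range of the members 48%. The spread among the 6 was small, with log2 folds from -0.25 to -0.11. These ATPases form the ring that pulls substrates into the core. For rpt-1 the mutant libraries held 203, 236 and 248 CPM and the N2 libraries 260.2, 279 and 291 CPM. For rpt-5 they held 162, 183 and 187 CPM in xpf-1 and 208, 213 and 219.6 CPM in N2. The groups did not overlap in either gene, and the log2 fold was -0.25 in both (SE 0.05 for rpt-1 and 0.04 for rpt-5). The gene rpt-6 was the least abundant of the ring per length, at 82.8, 86.2 and 88.5 CPM in xpf-1 and 92.9, 100.2 and 105 CPM in N2, a log2 fold of -0.21 ± 0.05 (SE, edgeR adjusted p 0.00027). On the other strand glrx-5 shares 44 bases with it, had 40.1% as many reads and fell by 0.65 ± 0.07 log2 units.

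The other 3 ATPase genes stood near the threshold. For rpt-2 the levels were 198, 216 and 218 CPM in xpf-1 and 218, 233 and 257 CPM in N2, so that the groups all but touched (log2 fold -0.14 ± 0.05, edgeR adjusted p 0.00909). For rpt-4 they were 206, 221 and 227 CPM in xpf-1 and 217, 241 and 248 CPM in N2, with overlap (log2 fold -0.12 ± 0.05, edgeR adjusted p 0.0255). Its span shares 1102 bases with nfyc-1 on the other strand, which had 36.2% as many reads and fell by 0.22 ± 0.06 log2 units, and 1177 bases with rpoa-49, which did not pass (0.05 ± 0.07). For rpt-3 they were 147, 165 and 170.2 CPM in xpf-1 and 156, 178 and 186 CPM in N2, also with overlap, and it did not pass (log2 fold -0.11 ± 0.05, edgeR adjusted p 0.0584). Leaving aside the 1.5-fold test, the calls of rpt-2 and rpt-4 were the ATPase calls lost under some scalings, filters or subsets. For rpt-4 the call was also lost without N2 replicate 6 (edgeR adjusted p 0.0562), without xpf-1 replicate 1 (0.0842) and without xpf-1 replicate 5 (0.0787), within a range of 0.00136 to 0.438. For rpt-2 the range over the alternatives was 0.000565 to 0.227. The call of rpt-3 as lower was gained under 7 alternatives, within a range of 0.00648 to 0.592. Among them were DESeq2 (0.0474) and leaving out N2 replicate 2 (0.00648) or xpf-1 replicate 3 (0.0497). The log2 fold of rpt-3 was -0.070 without xpf-1 replicate 1.

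The non-ATPase subunits of the base held the 1 gene that rose. The gene rpn-10 (WBGene00004466, chromosome I, 10730729 to 10732448, minus strand) encodes a ubiquitin receptor of the proteasome and is known in worms for its part in hermaphrodite sex determination. It had 139, 146 and 153 CPM in xpf-1 and 120.0, 129 and 137 CPM in N2. All mutant libraries lay above all N2 libraries, and the log2 fold was 0.19 ± 0.05 (SE, edgeR adjusted p 0.000626). Its call was lost in replicates 1 to 3 alone (adjusted p 0.202, range 1.1e-05 to 0.202 over the alternatives). The other ubiquitin receptor gene, rpn-13, was lower, at 120 to 136 CPM in xpf-1 and 135 to 163 CPM in N2 (log2 fold -0.19 ± 0.05, edgeR adjusted p 0.0023). Its span shares 116 bases with let-767 on the same strand, which had 95.4% as many reads, so its value is less certain.

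Of the 2 large scaffold subunits of the base 1 fell. The gene rpn-1, whose product docks ubiquitin-binding shuttles in yeast, had 148, 159 and 176 CPM in xpf-1 and 131, 155 and 158 CPM in N2, and did not pass (log2 fold 0.09, 95% interval -0.02 to 0.20, edgeR adjusted p 0.139). It passed as higher with library totals (0.0145, range 0.00594 to 0.71), and its log2 fold was 0.053 without N2 replicate 1. The gene rpn-2, whose product holds RPN-13, had 183, 191 and 204 CPM in xpf-1 and 199, 215 and 231 CPM in N2, and fell by 0.16 ± 0.05 log2 units (SE, edgeR adjusted p 0.00321) with overlapping libraries. Its call was lost with library totals (edgeR adjusted p 0.109, range 2.87e-08 to 0.109). Reads of rpn-1 per read of rpn-2 were 0.826 in xpf-1 and 0.692 in N2, without overlap. The span of rpn-2 shares 206 bases with C23G10.8 on the other strand, which had 110% as many reads and rose by 0.22 ± 0.05 log2 units. The log2 fold of rpn-1 was -0.09 when each library was corrected for length.

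In the lid 6 of 9 genes fell and 0 rose, and the median log2 fold was -0.20. The share lower was 66.7%, beside 29.6% of all tested genes and 48% of those in the abundance range of the members. The largest falls among its abundant members were in rpn-12 and rpn-5, both scaffold subunits. For rpn-12 (WBGene00004468, chromosome II, 11653053 to 11654194, plus strand) the levels were 139, 145 and 159.8 CPM in xpf-1 and 183, 198 and 204 CPM in N2. For rpn-5 they were 174, 196 and 206 CPM in xpf-1 and 231, 263 and 272 CPM in N2. The groups were apart in both, and the log2 folds were -0.43 ± 0.05 and -0.42 ± 0.05 (SE, edgeR adjusted p 1.65e-09 and 7.32e-09). The gene rpn-12 lies 41.98 kilobases from xpf-1, the nearest member to the mutated gene. Of the 39 other tested genes within 100 kilobases of xpf-1, 13 fell and 9 rose. These counts stand beside shares of 29.6% lower and 30.1% higher over all tested genes. The median change in this window was 0.0038 log2 units, and that of all tested genes was 0.028. Whether the place of rpn-12 bears on its fall was not tested.

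The lid also holds the deubiquitylating pair of RPN-11, the metalloprotease that removes ubiquitin chains, and its partner RPN-8. For rpn-8 the levels were 236, 257 and 271 CPM in xpf-1 and 299, 326 and 346 CPM in N2 (log2 fold -0.35 ± 0.05, edgeR adjusted p 9.23e-08). For rpn-11 they were 198, 221 and 237 CPM in xpf-1 and 242, 254 and 261 CPM in N2 (log2 fold -0.20 ± 0.05, edgeR adjusted p 0.000306). Both were separated between the groups, and reads of rpn-8 per read of rpn-11 were 1.154 in xpf-1 and 1.28 in N2, with overlapping libraries. The gene rpn-7 fell by 0.17 ± 0.05 log2 units (edgeR adjusted p 0.00633) with overlapping libraries, and its call was lost with library totals (0.126, range 0.000363 to 0.131). The lid genes rpn-3 and rpn-9 did not pass, with log2 folds of -0.11 (95% interval -0.20 to -0.01, edgeR adjusted p 0.052) and -0.04 (95% interval -0.13 to 0.05, edgeR adjusted p 0.478). The call of rpn-3 as lower was gained under 8 alternatives, in a range of 0.00208 to 0.592. Among them were DESeq2 (0.0317) and leaving out N2 replicate 2 (0.009) or xpf-1 replicate 6 (0.0361). Without xpf-1 replicate 1 the log2 fold was -0.069 for rpn-3 and -0.0013 for rpn-9.

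The worm has a pair of genes for the lid subunit RPN-6, 1 abundant and 1 scarce. In C. elegans, additional RPN-6.1 is known to raise proteasome activity. The gene rpn-6.1 had 146, 153 and 169 CPM in xpf-1 and 133, 144 and 156 CPM in N2. It did not pass with all libraries (log2 fold 0.10, edgeR adjusted p 0.0818). It passed as higher under 6 alternatives, within a range of 0.00243 to 0.583. Among them were library totals only (0.00777), the 5 CPM filter (0.00762) and leaving out xpf-1 replicate 1 (0.032). The gene rpn-6.2 had only 4.95, 6.16 and 7.72 CPM in xpf-1 and 7.29, 9.19 and 9.79 CPM in N2, or 101 to 144 reads against 139 to 199 reads. It fell by 0.51 ± 0.11 log2 units (SE, edgeR adjusted p 0.000212) with overlapping libraries. Reads of rpn-6.1 per read of rpn-6.2 were 25.1 in xpf-1 and 16.4 in N2, without overlap. The way in which reads shared between similar genes were counted was not stated by the labels or headers.

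Core and regulatory particle were set side by side. In the core 10 of 14 genes fell and 0 rose, and the median log2 fold was -0.29. In the regulatory particle 12 of 18 fell and 1 rose, with a median of -0.17. The shares lower were 71.4% in the core and 66.7% in the regulatory particle. Among all tested genes 29.6% fell and 30.1% rose, and in the abundance range of the members 48% and 27.2%. The geometric mean over the core genes was 187 to 212 CPM across the xpf-1 libraries and 245 to 258 CPM across the N2 libraries. Over the regulatory genes it was 149 to 161 CPM in xpf-1 and 172 to 183 CPM in N2. Both particles were lower in each mutant library than in any N2 library, the core to 82.2% and the regulatory particle to 88.8% of the N2 mean. Their ratio needs no scaling between libraries: the core over the regulatory mean was 1.26 to 1.35 in xpf-1 and 1.37 to 1.502 in N2, without overlap. Without the scarce rpn-6.2 it was 1.05 to 1.10 in xpf-1 and 1.146 to 1.27 in N2, again without overlap. Within the core, the alpha ring was at 77.1% and the beta ring at 87.7% of the N2 mean. No test was made of these summaries, since the members were chosen as a set and share libraries.

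Gene length ran with the split between particles. Core transcripts span 828 to 1234 bases and regulatory ones 928 to 3419 bases, and among all tested genes the longer ones tended higher in the mutant. Genes of 800 to 1100 bases had a median log2 fold of -0.03, and genes of 2000 to 3500 bases one of 0.09. Between them, genes of 1100 to 1500 bases had -0.013 and genes of 1500 to 2000 bases 0.020. The median length was 950 bases in the core and 1490 bases in the regulatory particle. Across the 32 members the log2 fold and the length had a Spearman rho of 0.35. Within the core it was 0.29 and within the regulatory particle 0.22, descriptions over genes that share libraries. With the length trend removed from each library the medians were -0.33 for the core and -0.22 for the regulatory particle, and 12 of 14 and 14 of 18 genes fell. In that fit 34.8% of all genes fell and 25.6% rose.

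**Figure D3:**
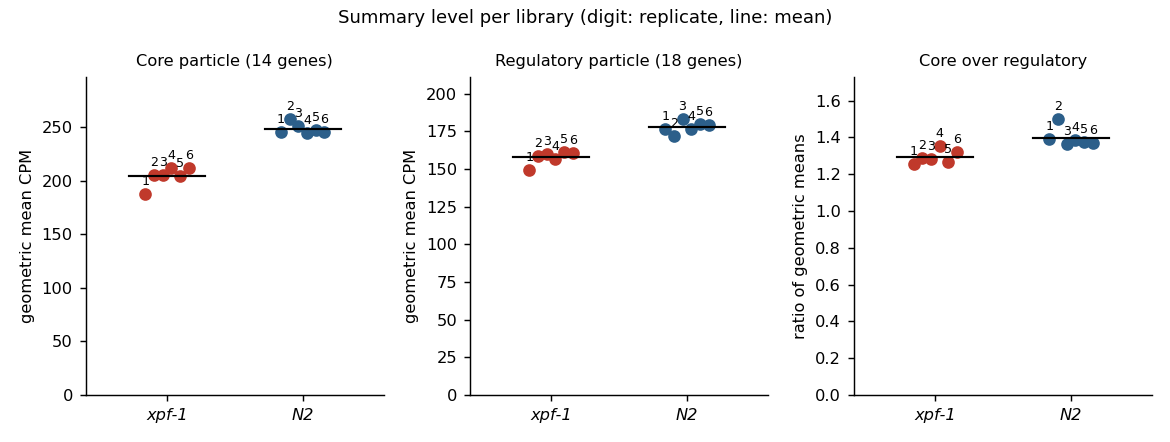
Geometric mean level of the 14 core genes and of the 18 regulatory genes, in CPM, and their ratio, in each library (y axes, from 0), with xpf-1 left of N2, the replicate number at each point and the mean as a line. Core values are 187 to 212 CPM in xpf-1 and 245 to 258 CPM in N2, and the ratio is 1.26 to 1.35 in xpf-1 and 1.37 to 1.502 in N2.

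Levels of different members were compared per length, as CPM per kilobase of the deposited gene length. The deposited FPKM values of some members rest on a shorter length, down to 92.0% of the deposited one. In N2 the order ran from pas-5 at 504 ± 25.8 through pbs-1 at 383 ± 19.1 and pas-2 at 324 ± 22.6 CPM per kilobase down to rpn-2 at 69.4 ± 4.08 and rpn-1 at 43.7 ± 3.14, with rpn-6.2 far below at 5.69 ± 0.585 (SD, n = 6). In xpf-1 pas-5 stood at 471 ± 34.2, rpn-1 at 46.5 ± 3.21 and rpn-6.2 at 4.00 ± 0.619 CPM per kilobase. Of the 10 highest members in N2, 9 encode core subunits. Median levels were 205 in xpf-1 and 284 in N2 for the core and 132 in xpf-1 and 153 in N2 for the regulatory particle, in CPM per kilobase. In this order the ranges of 25 of the 31 neighbouring pairs overlapped in N2, so most neighbours cannot be ranked. The gaps that stood clear of the spread followed pas-5, rpn-12, rpt-3, rpn-6.1, rpn-2 and rpn-1.

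The subunits of one machine were thus not at one transcript level. Without rpn-6.2, the highest member exceeded the lowest 10.1-fold in xpf-1 and 11.5-fold in N2 per length. The order was nearly the same in the mutant, with a Spearman rho of 0.97 over the 32 members, a description with no test. The member that changed its place most was pas-7, which stood at place 12 in xpf-1 and at place 6 in N2.

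**Figure D4:**
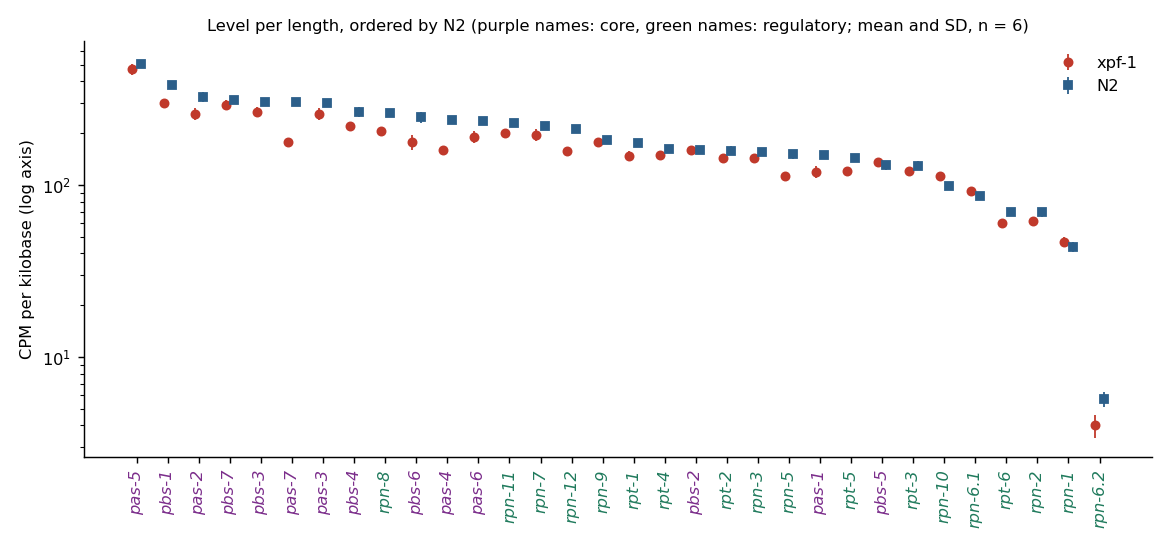
Level per length of each member in xpf-1 (circles) and N2 (squares), in CPM per kilobase on a log axis, as mean and SD over 6 libraries, ordered by N2. The core genes (purple names) fill 9 of the 10 highest places, pas-7 is at 178 in xpf-1 and 305 in N2, and rpn-6.2 lies apart at 4.00 in xpf-1 and 5.69 in N2.

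The members are spread over 5 chromosomes, with 10 on I, 7 on II, 7 on III, 3 on IV and 5 on V. Calls as lower occurred on each, in 5, 6, 4, 2 and 5 of these genes, against 36.8%, 29.8%, 35.9%, 33.5% and 28.1% of all tested genes of the same chromosomes. A protein-coding gene on the same strand ended within 500 bases upstream of 7 members. Of these 5 fell and 1 rose, beside 22 and 1 of all 32 members. The spans of 11 members overlap another counted gene, 10 of them on the other strand alone. Overlaps not given above are pqn-48 with rpn-11 (5.77% as many reads, log2 fold 0.93) and fos-1 with rpt-2 (10.4%, 0.18). On the other strand too, Y54E5A.8 overlaps pbs-5 (6.47%, -0.30) and F49C12.10 overlaps rpn-7 (1.07%, -0.02). The snoRNA gene R12E2.17 lies on the strand of rpn-8 (0.084%). Since the strand setting of the counting is not given, reads in such overlaps cannot be assigned with certainty. Of the other 21 members 12 fell and 1 rose, and the median log2 fold was -0.25. The share lower was thus 57.1% there and 68.8% over all 32 members. It was 29.6% over all tested genes and 48% over those in the abundance range of the members.

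The factors that set proteasome abundance and activity were mixed. Of 14 listed genes 6 fell (42.9%), 1 rose and 7 did not pass, where 29.6% of all tested genes fell and 30.1% rose. In the abundance range of the members, where most of the 14 lie, 48% fell and 27.2% rose. The transcription factor gene skn-1 stood at 165 ± 7.64 CPM in xpf-1 and 160 ± 12.5 CPM in N2 (SD, n = 6 each) and did not pass (log2 fold 0.04 ± 0.05, edgeR adjusted p 0.507). Its table entry does not separate the SKN-1A isoform. The protease that activates SKN-1A is encoded by ddi-1, deposited as C01G5.6, which fell by 0.21 ± 0.04 log2 units (edgeR adjusted p 9.63e-05), while the deglycosylase gene png-1 did not pass (log2 fold -0.07, adjusted p 0.412). The assembly chaperone gene psmd-9 had 99.8 ± 7.71 CPM in xpf-1 and 140 ± 8.30 CPM in N2, a log2 fold of -0.48 ± 0.05. The gene of the alternative activator psme-3, deposited as Y66D12A.9, fell by 0.35 ± 0.05 log2 units, and dss-1, the small lid component, fell by 0.13 ± 0.05. Unlike the member rpn-11, which fell, the genes of the associated deubiquitylating enzymes ubh-4 and usp-14 did not pass. Their log2 folds were -0.01 ± 0.05 for ubh-4 and 0.04 ± 0.05 for usp-14. The gene that rose was sel-1, of degradation from the endoplasmic reticulum, by 0.21 ± 0.05 log2 units. Listed beside it, sel-11 fell by 0.37 ± 0.05 log2 units (edgeR adjusted p 3.62e-07).

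Upstream of the proteasome, the CDC-48 segregase extracts ubiquitylated proteins from complexes and membranes. All 13 listed genes of CDC-48 and its cofactors fell, with a median log2 fold of -0.26. Among all tested genes 29.6% fell, and among those in the abundance range of the members 48% fell. The ATPase genes cdc-48.1 and cdc-48.2 fell by 0.23 ± 0.05 and by 0.20 ± 0.05 log2 units. The cofactor gene ubxn-1 fell by 0.57 ± 0.06 and ubxn-6 by 0.39 ± 0.05 log2 units. The lists named here and below were written with earlier results of these data known, so their counts are descriptions.

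Other large complexes were set beside the proteasome without a test of the difference. Among all tested genes 29.6% were lower and 30.1% higher, and in the abundance range of the members 48% and 27.2%. The COP9 signalosome, which resembles the lid in build, had 3 of 7 genes lower and 1 higher, with a median log2 fold of -0.12. The CCT chaperonin, a ring complex that folds cytosolic proteins, had 1 of 8 lower and 3 higher, with a median of 0.10. For the cytosolic ribosome 72 of 75 tested protein genes were lower and 1 was higher, the median being -0.59, so the proteasome median of -0.21 lay between those of the ribosome and the chaperonin.

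**Figure D5:**
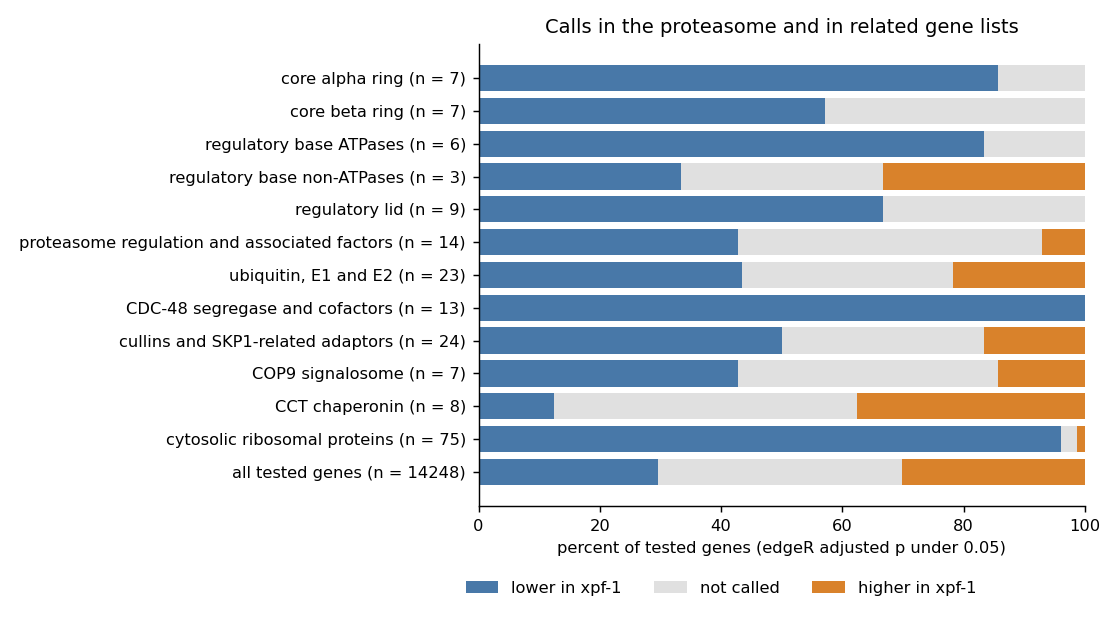
Percent of the tested genes called lower, not called and called higher in xpf-1 (x axis, edgeR adjusted p under 0.05), for the groups of proteasome subunits, for related gene lists and for all 14248 tested genes (y axis). The alpha ring, the ATPase ring, the CDC-48 list and the ribosomal proteins are mostly lower, and the CCT chaperonin is not.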

How the data were processed

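The deposited table holds raw read counts per gene for 12 libraries, made with HISAT2 2.1.0 and featureCounts 1.5.0-p3 on WBcel235, per the submitters' processing notes. The labels and headers do not state strand setting, treatment of multi-mapping reads or annotation release. Per the file headers, it also holds FPKM values by the authors, used only to check gene lengths. The authors' normalised counts, a signal of counts over 1 size factor per library, were not used. The authors' log2 fold changes and adjusted p-values, deposited with no tool named, were used for their calls only.

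Counts were fitted over all genes in edgeR 4.0.16 (R 4.3.3) with filterByExpr, TMM factors and the robust quasi-likelihood test, xpf-1 against N2 with no covariate, and adjusted by Benjamini-Hochberg over 14248 genes with a threshold of 0.05. The biological coefficient of variation was 9.62%. CPM uses TMM-adjusted library sizes. The script was tested on simulated data. Members and lists were chosen with earlier results of these data known. Named were all members, xpf-1 and, of each other list, up to 4 genes of smallest adjusted p or the 2 most abundant where none passed. Other factors of the proteasome, such as skn-1, were named by role after their values were seen. Alternatives were DESeq2 1.42.0, limma-voom (limma 3.58.1), other scalings, filters, thresholds and subsets, the replicate block and removal of the length trend. No pair of libraries of a group agreed within sampling noise. Tests of ratios between pairs of members, planned as exact permutations, are not reported because the pairs were chosen with the results known.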

Additional observations from a re-analysis of the deposited data

Results flagged for a closer look

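Each of 70 groups of 6 libraries (32 members and 3 summaries, in xpf-1 and in N2) was searched for a library far from the others, and chance alone flags about 1 in 20 groups. A total of 11 was found, and 6 of them are xpf-1 replicate 1 at the low end. That library had 106 CPM of pas-1 (the others 126 to 133), 242 CPM of pbs-7 (278 to 296), 203 CPM of rpt-1 (232 to 248), 147 CPM of rpt-3 (163 to 170.2) and 239 CPM of rpn-3 (267 to 282). Its geometric mean over the core genes was 187 CPM, against 205 to 212 CPM in the other mutant libraries. N2 replicate 2 was flagged for 479 CPM of pas-5 (the other N2 libraries 418 to 435), for 259.8 CPM of rpn-3 (288 to 295) and for a core over regulatory ratio of 1.502 (1.37 to 1.39). The remaining flags were 282 CPM of pas-7 in N2 replicate 1 (the others 301 to 312) and 159.8 CPM of rpn-12 in xpf-1 replicate 4 (139 to 147). What sets these libraries apart was not tested.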

How the results depend on the processing

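With all libraries, 22 members fell and 1 rose (10 of the core and 12 of the regulatory particle fell). Leaving out each library in turn gave 21 to 24 lower, 1 to 2 higher, 10 to 11 lower in the core and 11 to 14 lower in the regulatory particle. The count of higher members was 2 without N2 replicate 2 and 2 without xpf-1 replicate 1, and 3 without both, an alternative chosen after seeing the data. It was 4 with upper-quartile scaling, with library totals only and under the 5 CPM filter, and 3 in replicates 4 to 6 alone. The test against a 1.5-fold change left 1 lower (1 core, 0 regulatory) and 0 higher. The median log2 fold of all members was -0.13 with upper-quartile scaling and -0.14 with library totals only. That of the regulatory particle was -0.091 and -0.098 in these, -0.22 with the length trend removed, and -0.22 with the replicate block in addition. Signs turned in 3 members that did not pass. The log2 fold of pbs-2 was 0.00090 in full, -0.012 in DESeq2, -0.0021 with DESeq2 size factors, -0.039 with no low-count filter, -0.039 with the length trend removed, -0.039 with the replicate block in addition, -0.00995 in replicates 1 to 3, -0.0045 without xpf-1 replicates 1 and 5 and N2 replicate 5 (chosen after seeing the data), and -0.014 to 0.019 with single libraries left out. That of rpn-1 was -0.092 with the length trend removed, -0.091 with the replicate block in addition and -0.027 in replicates 4 to 6. That of rpn-9 was 0.0304 with library totals only, 0.036 with upper-quartile scaling, 0.0065 under the 5 CPM filter and 0.0095 without the same 3 libraries, and with single libraries left out it reached -0.061 (without xpf-1 replicate 4). The causes were not tested. The xpf-1 transcript kept its direction and its call under each alternative run. Deviations of same-numbered libraries correlated by -0.0031 to 0.12, so the numbers were not taken as pairs. The replicate block gave 22 lower and 1 higher. Depth limits rpn-6.2 alone among the members, at 101 to 199 reads per library.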

Other observations

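Ubiquitin itself and the enzymes that attach it changed in both directions. Of 23 tested genes for ubiquitin, its activating enzyme and its conjugating enzymes, 10 were lower and 5 higher in xpf-1, the median log2 fold being -0.08. Among all tested genes 29.6% were lower and 30.1% higher, and in the abundance range of the proteasome members 48% and 27.2%. The gene ubq-2, which encodes ubiquitin fused to a ribosomal protein, had 1207 ± 56.9 CPM in xpf-1 and 1786 ± 146 CPM in N2 (SD, n = 6 each), a log2 fold of -0.56 ± 0.06 (SE). The conjugating enzyme gene ubc-7 fell by 0.30 ± 0.05 log2 units and the scarce ubc-23 rose by 0.90 ± 0.10.

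Of 24 genes for cullins and their SKP1-related adaptors 12 were lower and 4 higher in xpf-1, the median log2 fold being -0.14. The share lower was 29.6% of all tested genes and 48% of those in the abundance range of the members. The share higher was 30.1% and 27.2%. The cullin gene cul-6 had 19.3 ± 2.32 CPM in xpf-1 and 9.67 ± 0.742 CPM in N2, and the adaptor gene skr-9 rose by 0.39 ± 0.05 log2 units. The RING genes rbx-1 and rbx-2 fell by 0.42 ± 0.05 and by 0.43 ± 0.05 log2 units.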
